A study of Mus musculus with 24 samples.

Results

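The data analysed here are the messenger RNA levels of 10 activity-regulated immediate early genes, Fos, Fosb, Jun, Junb, Egr1, Egr2, Egr3, Arc, Npas4 and Nr4a1, in cultured mouse cells on the way from embryonic stem cells to neurons. They were taken by gene symbol from an expression table that listed 22667 genes, of which 21553 had counts and 16627 passed the filter on low counts. All 10 had counts and all 10 passed that filter. There were 4 stages: E14 mouse embryonic stem cells (ESCs), neural progenitors (NPCs) after 7 days of differentiation, PSA-NCAM+ cells, which carry the polysialylated form of a neural adhesion molecule and were collected on day 10, and neurons, replated on day 7 and kept for a further 14 days. Each stage was sampled 3 times in wild-type (WT) cells and 3 times in slow/slow cells, in which an arginine of RNA polymerase II's catalytic subunit is replaced by histidine on both alleles of Polr2a, and which were made to ask what a slower polymerase does to gene expression. Slow/slow cells were a single line obtained from E14 by consecutive rounds of targeting, and the substitution itself cannot be seen in gene counts.

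Several conditions differed with the stage or the genotype, per the study's methods. ESCs grew in a medium with an inhibitor of the kinase MEK, a GSK3 inhibitor and LIF. PSA-NCAM+ cells were detached with accutase and bound to antibody-coated beads before RNA was taken, a step the methods give for that stage alone. Neurons were kept with ascorbic acid and 0.25 mM cAMP, the second messenger that activates protein kinase A. For differentiation, WT cells were plated at 10000 and slow/slow cells at 30000 per square centimetre. The effects of medium and handling cannot be told apart from those of stage, nor those of plating density from those of genotype. With a single slow/slow line, other differences between the lines cannot be told apart from the substitution. The replicates repeat the culture of the same lines, and the FDR values given below measure that spread. In bulk RNA, fewer cells of a type and less RNA per cell cannot be told apart either.

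Immediate early genes are transcribed within minutes of a stimulus, without the synthesis of new protein, because the transcription factors that drive them are already present and are switched on by phosphorylation. Growth factors act through the ERK kinases and serum response factor (SRF), which binds the CArG box, while calcium and cAMP act through CREB, which binds the cAMP response element (CRE). In neurons these genes are the standard markers of recent activity. Fos, Fosb, Jun and Junb encode subunits of the dimeric transcription factor AP-1, Egr1, Egr2 and Egr3 encode zinc finger transcription factors, Npas4 encodes a bHLH-PAS factor that responds chiefly to calcium in neurons, Nr4a1 encodes an orphan nuclear receptor, and Arc encodes a postsynaptic protein that takes part in the removal of glutamate receptors from the synapse.

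Promoter sequence was available from RefSeq (GRCm38.p6) for 7 of the 10 genes, in 11 windows of 250 bases upstream of an annotated start. The windows of Fos, Egr2 and Nr4a1 were chosen by their letters. Each held at least 2 half-sites of the CRE or a CArG box and overlapped no annotated exon. For Egr2, the such window with the most marked bases was taken. All 3 windows are on the plus strand, at chr12:85473640-85473889 for Fos, chr10:67537619-67537868 for Egr2 and chr15:101266596-101266845 for Nr4a1. The Egr2 and Nr4a1 windows both belong to internal starts that lie within the span of the gene. Capitals mark the half-site of the CRE, TGACG read on either strand, and in Egr2 also a CArG box.
Fos: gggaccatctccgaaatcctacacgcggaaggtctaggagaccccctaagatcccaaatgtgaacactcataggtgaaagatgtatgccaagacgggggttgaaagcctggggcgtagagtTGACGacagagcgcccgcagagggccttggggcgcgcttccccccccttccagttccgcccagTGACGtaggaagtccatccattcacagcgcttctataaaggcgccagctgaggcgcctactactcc
Egr2: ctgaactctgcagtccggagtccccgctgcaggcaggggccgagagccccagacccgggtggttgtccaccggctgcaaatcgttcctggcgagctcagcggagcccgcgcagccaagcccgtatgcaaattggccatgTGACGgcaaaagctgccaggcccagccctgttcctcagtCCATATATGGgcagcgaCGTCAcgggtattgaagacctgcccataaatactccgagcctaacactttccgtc
Nr4a1: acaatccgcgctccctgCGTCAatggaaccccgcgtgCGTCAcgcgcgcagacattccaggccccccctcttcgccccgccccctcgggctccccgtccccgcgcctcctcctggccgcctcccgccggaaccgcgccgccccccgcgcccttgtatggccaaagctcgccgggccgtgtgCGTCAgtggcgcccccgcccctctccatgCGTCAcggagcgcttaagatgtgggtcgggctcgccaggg

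The Nr4a1 window held 4 half-sites, which 0.137% of the 32851 RefSeq windows of this length did. Fos held 2, starting 129 and 66 bases before the transcription start, and Egr2 held 2, at 111 and 55 bases before it, on either side of a CArG box. Windows with at least 2 half-sites made up 3.9% of all, and windows with a CArG box 1.47%. At least 1 half-site was found in some window for 6 of the 7 genes, all but Jun. Single windows with at least 1 made up 17.8% of all. Egr2 had several windows, some overlapping, so the count by gene cannot be set against that share. The full palindrome TGACGTCA, which contains the half-site on both strands, was in 0 of the 11 windows and in 1.55% of all. The printed windows were chosen because they held such motifs, so their standing among all windows is not a result about these genes. These matches describe letters and not bound factors.

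Like most immediate early genes, the 10 are short. In the GENCODE annotation of GRCm38 they lay at chr12:85473890-85477273 (+, Fos), chr7:19302696-19310051 (−, Fosb), chr4:95049034-95052222 (−, Jun), chr8:84974484-84978718 (−, Junb), chr10:67535475-67542188 (+, Egr2), chr14:70077203-70082614 (+, Egr3), chr15:74669083-74672570 (−, Arc), chr19:4984355-4990316 (−, Npas4) and chr15:101254269-101274795 (+, Nr4a1), with Egr1 on chromosome 18. Nr4a1, annotated from its most upstream start, spanned 20.53 kb, and the other 9 spanned 3.19 to 7.36 kb. Jun and Junb have no intron in the principal transcript examined for each. Jun overlaps the antisense gene Junos, and Junb overlaps Prdx2, a peroxiredoxin gene on the opposite strand. Whether reads were counted by strand was not stated, so the counts of Jun and Junb may hold reads of these partners.

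Total counts per sample ranged from 32974432 to 104466886, and no pair of libraries held identical values. Levels are given as CPM, the usual scaling of counts to a common library size, with library sizes adjusted by TMM. Differences are log2 ratios with their standard error (SE), n = 3 per group, and the FDR is the Benjamini-Hochberg adjusted p of edgeR's quasi-likelihood test over all 16627 genes, with a gene called changed under 0.05. The study's methods describe 3 independent differentiations. In PSA-NCAM+ cells, replicate 1 stood apart in both genotypes: its correlation with the other replicates was 0.978 in WT and 0.960 to 0.965 in slow/slow cells, where the other pair reached 0.9945 and 0.9953. The macrophage gene Csf1r was at 33.8 CPM in that WT library and at 3.38 and 5.16 in the others, and at 26.5 CPM against 0.661 and 0.611 in slow/slow cells, while Ptprc, a marker of all leukocytes, was at 0 in all 6 PSA-NCAM+ libraries. Results that rest on these libraries are given with and without them.

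The plainest feature of the 10 genes was their level in PSA-NCAM+ cells. Together they took up 0.175 to 0.279% of all counts there, against 0.0091 to 0.0177% in ESCs, 0.0125 to 0.023% in NPCs and 0.0187 to 0.0356% in neurons. From NPCs to PSA-NCAM+ cells all 10 rose in WT and all 10 rose in slow/slow cells, where 21.8% and 22.5% of all tested genes did. No sample of either stage overlapped for any of them, whereas 25.8% of all genes in WT and 21.6% in slow/slow cells had every PSA-NCAM+ sample above every NPC sample. The rise exceeded 10-fold for 5 of the genes in WT and 6 in slow/slow cells, a size that 0.998% and 0.595% of all genes reached. Fosb had the largest difference in either direction of all 16627 genes in both genotypes.

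**Figure D1:**
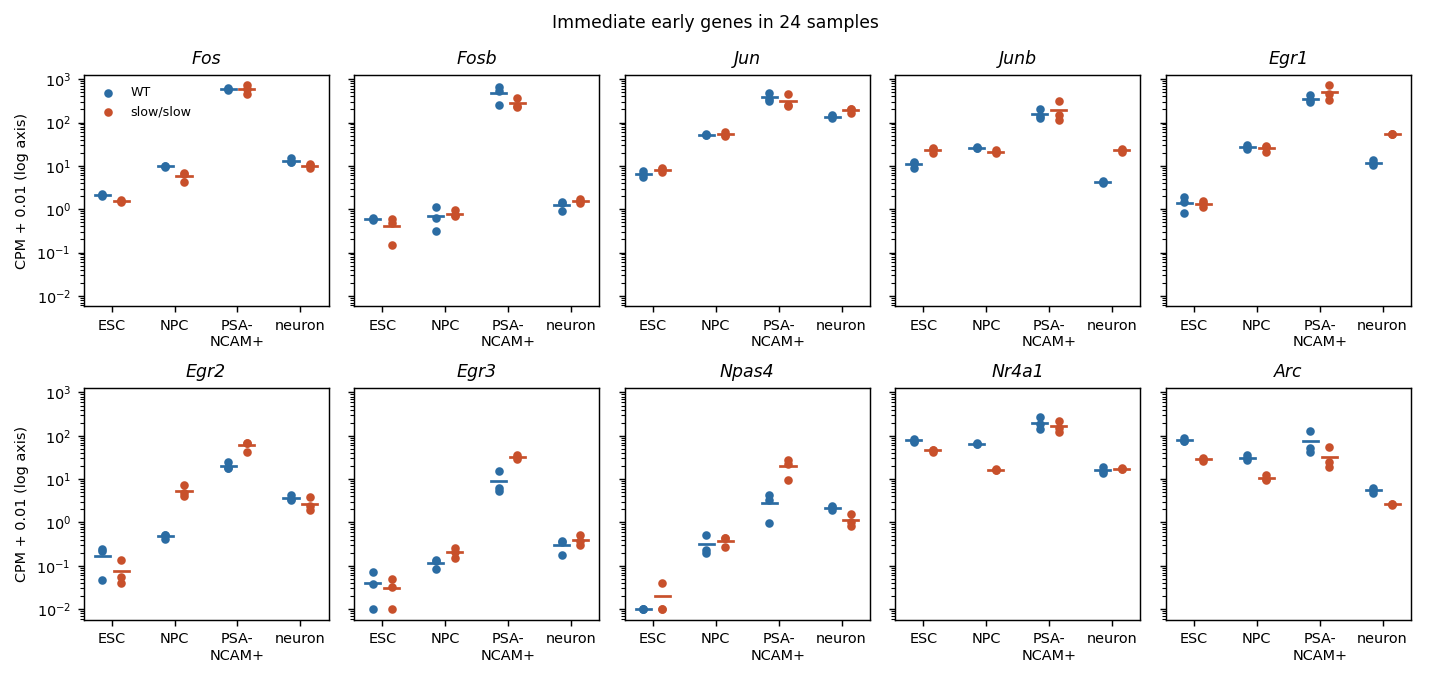
Level of each of the 10 genes in every library, as CPM plus 0.01 on a log axis, by stage, with WT in blue and slow/slow in orange; points are samples and bars are means of 3. For every gene except Arc in WT cells, whose 3 ESC libraries average highest, the PSA-NCAM+ libraries hold the highest mean of the 4 stages.

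Fos and Fosb, the partners that give AP-1 its strongest activation, had the widest rises of the AP-1 genes. Fos stood at 9.96, 9.66 and 9.63 CPM in the WT NPC samples and at 618, 565 and 591 CPM in the WT PSA-NCAM+ samples, and at 6.78, 4.3 and 6.48 against 603, 464 and 731 CPM in slow/slow cells. The replicates of a stage were close and the gap between stages was wide in both genotypes, with log2 differences of 5.92 ± 0.17 (FDR 7.73e-15) in WT and 6.67 ± 0.18 (FDR 1.71e-15) in slow/slow cells, or 60.7-fold and 102-fold. Fosb was near 1 CPM or below in NPCs, at 0.312, 0.604 and 1.09 in WT and 0.725, 0.692 and 0.937 in slow/slow cells. In PSA-NCAM+ cells Fosb reached 664, 520 and 252 CPM in WT against 367, 239 and 233 CPM in slow/slow cells, with replicate 1 the highest in both genotypes. These levels correspond to 686-fold (log2 9.42 ± 0.43, FDR 1.7e-11) and 360-fold (log2 8.49 ± 0.42, FDR 3.94e-11).

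Jun and Junb started from higher levels and rose less. Jun, the DNA-binding partner of Fos, went from 54.2, 50.9 and 51 CPM in WT NPCs to 491, 356 and 306 in WT PSA-NCAM+ cells, a 7.39-fold difference (FDR 7.52e-09), and from 52.5, 48.2 and 60.2 to 458, 237 and 260 CPM in slow/slow cells, a 5.94-fold difference (FDR 4.1e-08). Junb, a less active relative of Jun, went from 26.8, 25.9 and 25.5 to 210, 130 and 139 CPM in WT and from 22.6, 19.8 and 20.9 to 308, 115 and 153 CPM in slow/slow cells. That was 6.12-fold (FDR 3.49e-07) and 9.09-fold (FDR 5.44e-08), and the replicate 1 libraries again held the top values of both genes.

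The EGR family rose in the same 2 comparisons by amounts that ran opposite to the starting levels in WT cells. Egr1 went from 29.8, 27 and 24.4 to 293, 328 and 424 CPM in WT cells, 12.9-fold (FDR 2.04e-09), and from 28.1, 20.4 and 27.8 to 339, 461 and 727 CPM in slow/slow cells, 20-fold (FDR 5.11e-10). Egr2 went from 0.499, 0.407 and 0.495 to 24.5, 18.2 and 17.8 CPM in WT, 43.2-fold (FDR 2.04e-09), and from the higher start of 4.67, 4.15 and 7.32 to 42.6, 69.7 and 68.7 CPM in slow/slow cells, 11.2-fold (FDR 9.84e-08). Egr3, a close relative of both, went from 0.125, 0.121 and 0.075 to 15.3, 6.36 and 5.42 CPM in WT, 84.2-fold (FDR 6.85e-09), and from 0.246, 0.143 and 0.197 to 28.4, 31.6 and 36.5 CPM in slow/slow cells, 157-fold (FDR 1.21e-09). Unlike in the AP-1 genes, replicate 1 was the lowest of the slow/slow PSA-NCAM+ libraries for all 3 EGR genes.

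Npas4, Nr4a1 and Arc completed the set. Npas4 was at 0.187, 0.226 and 0.51 CPM in WT NPCs and at 4.26, 3.21 and 0.945 in WT PSA-NCAM+ cells, 8.91-fold (FDR 0.000144). In slow/slow cells Npas4 was at 0.427, 0.263 and 0.419 CPM in NPCs and at 28, 22.9 and 9.63 CPM in PSA-NCAM+ cells, 53.5-fold (FDR 6.76e-07). Nr4a1 went from 63.4, 69.9 and 64.4 to 272, 183 and 142 CPM in WT, 3.02-fold (FDR 4.68e-06), and from 16.5, 15.9 and 17 to 225, 148 and 120 CPM in slow/slow cells, 9.95-fold (FDR 2.51e-09). Arc had the smallest difference in both genotypes, from 27.9, 35.6 and 30 to 128, 52.2 and 43.3 CPM in WT, 2.39-fold (FDR 0.00537), and from 12.4, 9.76 and 10.2 to 56.4, 24.4 and 19 CPM in slow/slow cells, 3.06-fold (FDR 0.000969). The Arc call in WT rested on replicate 1: without that PSA-NCAM+ library its log2 difference was 0.61 (FDR 0.089), and with only the samples of the 2 stages in the model it was 1.26 (FDR 0.0564).

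**Figure D2:**
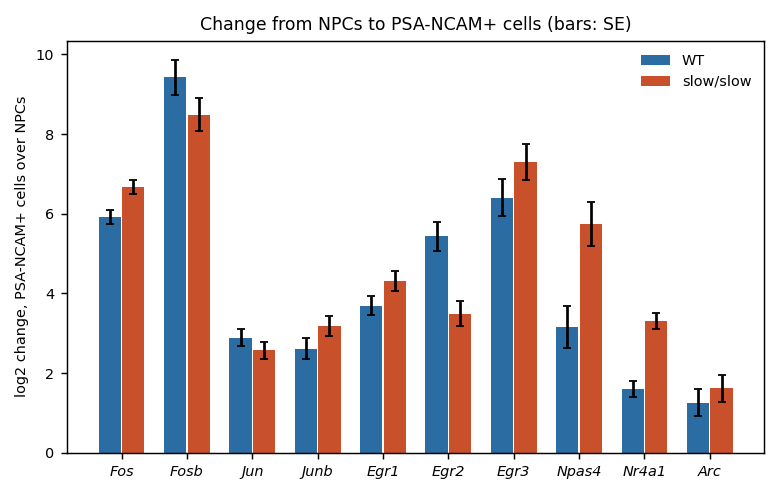
Log2 difference of PSA-NCAM+ cells over NPCs for each gene (bars start at 0, error bars are SE, n = 3 per group), in WT and slow/slow cells. All 20 bars are above 0, from 1.26 for Arc in WT to 9.42 for Fosb in WT.

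Marker genes were measured beside this rise. The pluripotency markers (6 genes, summed) were at 1340 to 1840 CPM in WT against 708 to 732 CPM in slow/slow PSA-NCAM+ cells, where ESCs had 5470 to 5960 and 5150 to 5580. The neuron markers with values (6 of 7) summed to 69.6 to 95.9 CPM in WT against 207 to 520 CPM in slow/slow PSA-NCAM+ cells, against 3430 to 3740 and 2740 to 2910 CPM in neurons, a level far below that of neurons in every library. Mesenchymal and smooth muscle markers (6 genes) rose as well, from sums of 441 to 501 CPM in WT and 208 to 300 in slow/slow NPCs to 807 to 1110 and 978 to 2010 CPM in PSA-NCAM+ cells. Of these 6, 5 rose and 0 fell in WT (median log2 difference 1.39) and 6 rose in slow/slow cells (median 2.46). Among 8 heat shock genes, 4 rose and 2 fell from NPCs to PSA-NCAM+ cells in WT, and 1 rose and 1 fell in slow/slow cells. Both counts are to be read against all tested genes, of which 21.8% rose in WT and 22.5% in slow/slow cells. Calls in either direction made up 41.3% and 42.3%. The part of accutase, beads or these other cells in the rise was not tested.

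Per transcript length, using the authors' mean RPKM, the order within PSA-NCAM+ cells was Fos (303 RPKM), Fosb (135), Jun (129), Egr1 (121), Junb (95.3), Nr4a1 (86.2), Arc (26.1), Egr2 (7.31), Egr3 (6.93) and Npas4 (0.91) in WT. In slow/slow cells Fos also led (287 RPKM), followed by Egr1 (164) and Junb (108), and Npas4 (6.14) was again last. These means carry no SD, so neighbours in the order were not separated by a test. In WT ESCs the order was different, with Nr4a1 (29.7 RPKM) and Arc (24.8) at the top.

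Between ESCs and NPCs the set split. In WT cells 6 of the 10 genes rose and 1 fell, where 34% and 31.6% of all genes did. In slow/slow cells 6 rose and 2 fell, with shares over the whole table of 33.9% and 28.4%. Egr1 had the clearest rise, from 1.44, 1.89 and 0.809 CPM in WT ESCs to the 24.4 to 29.8 CPM of WT NPCs (20.1-fold, FDR 6.15e-11) and 19.2-fold in slow/slow cells (FDR 7.85e-11). Jun rose 8.05-fold in WT (FDR 3.49e-10) and 6.56-fold in slow/slow cells (FDR 1.14e-09), and Fos 4.64-fold (FDR 6.41e-10) and 3.85-fold (FDR 1.15e-08). Arc fell in both genotypes, by 1.37 on the log2 scale in WT (FDR 0.00138) and by 1.42 in slow/slow cells (FDR 0.00128). Nr4a1 fell in slow/slow cells by 1.48 (FDR 2.49e-06), and in WT its difference was −0.25 ± 0.19 (FDR 0.277).

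Of the 10 genes, 3 were barely detected in ESCs. Npas4 had 0 counts in 5 of the 6 ESC libraries and 1 count in the other, and Egr3 had at most 4 counts in each. Egr2 had 14, 8 and 2 counts in the WT and 2, 6 and 1 counts in the slow/slow ESC libraries, so fitted folds against ESCs are imprecise for these genes and are not given here. PCR duplicates were not marked by molecular identifiers, and counts this low carry counting error at the least.

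From NPCs to neurons the directions were mixed, with 5 genes higher and 4 lower in WT (41.4% and 38.9% of all genes) and 5 higher and 2 lower in slow/slow cells (38.4% and 36.6%). The slow/slow Fosb call (log2 0.96, FDR 0.0477) was lost whichever library of those groups was left out (FDR 0.0523 to 0.124). The fall of Egr2 in slow/slow cells was lost without NPC replicate 3 (FDR 0.0549). Egr3 in WT lost its call without NPC replicate 3 (FDR 0.0621) or neuron replicate 3 (FDR 0.051). Jun rose in both genotypes, to 146, 124 and 140 CPM in WT against 163, 202 and 209 CPM in slow/slow neurons (log2 1.4 ± 0.2, FDR 2.08e-06, and 1.84 ± 0.2, FDR 7.27e-08). Npas4 rose to 2.24, 2.36 and 1.98 CPM in WT neurons (log2 2.79 ± 0.53, FDR 8.61e-05), where its range overlapped that of WT PSA-NCAM+ cells. In slow/slow neurons Npas4 was at 1.59, 1.02 and 0.822 CPM (log2 1.62 ± 0.53, FDR 0.0105), and without replicate 1 of the neurons its difference was 1.29 (FDR 0.0582). Arc fell in both, to 4.88, 5.71 and 6.26 CPM in WT (log2 −2.47 ± 0.35, FDR 2.13e-06) and 2.55, 2.64 and 2.71 CPM in slow/slow neurons (log2 −2.04 ± 0.37, FDR 4.58e-05), its lowest level of the 4 stages. Fos was at 12.2, 15 and 12.1 CPM in WT neurons and 10.5, 10.8 and 8.8 CPM in slow/slow neurons, above the NPC samples in each genotype (FDR 0.0118 and 0.000124), and the WT difference of 0.43 was 0.29 without WT neuron replicate 2 (FDR 0.0995) and 0.15 under upper-quartile scaling (FDR 0.343).

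Slow/slow and WT cells were then compared within each stage, the comparison the mutation was made for. Of the 10 genes, 1 was higher and 2 were lower in slow/slow ESCs, NPCs had 1 and 3, PSA-NCAM+ cells 4 and 2, and neurons 3 and 2. The shares of all tested genes called higher and lower were 18.5% and 21.9% in ESCs, 29.3% and 27.4% at the NPC stage, 28.6% and 28.1% at the PSA-NCAM+ stage, and 23.4% and 28.4% in neurons. The number of these genes called was therefore near or below that of genes in general, and what differed was which gene, at which stage, and how far. In PSA-NCAM+ cells the count fell to 3 without WT replicate 1 (51.7% of all genes called, against 56.7%) or with only that stage in the model (23.3%), and in neurons to 3 without WT replicate 2 (46.5%) or slow/slow replicate 3 (46.4%). Their median log2 difference was −0.42, −0.02, 0.14 and 0.17 from ESCs through to neurons, where the median of all genes was −0.02, 0.01, −0.01 and −0.06. Every slow/slow sample was above every WT sample for 1, 2, 3 and 3 of the 10 genes at these stages in turn (27.9%, 37.8%, 21.1% and 33.5% of all genes) and below for 3, 4, 0 and 3 (31.9%, 37%, 22% and 42%). Upper-quartile scaling moved the median of all genes in neurons by 0.14 and the share of higher among called genes from 45.2% to 59.2%, and called 3 of the 10 genes higher and 1 lower there. Because the same WT and slow/slow lines were compared at every stage, the 4 comparisons share their cell lines but no library.

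**Figure D3:**
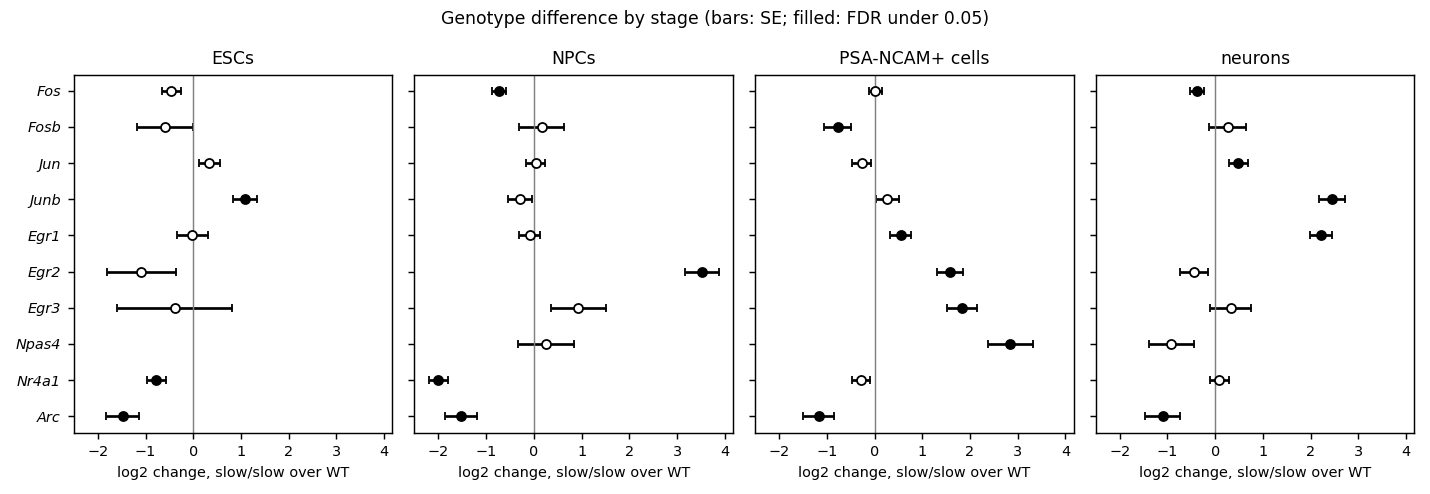
Log2 difference of slow/slow over WT cells with SE (n = 3 per group) for each gene, 1 panel per stage, filled where the FDR was under 0.05. Npas4 in ESCs is left out because it had 1 count in 6 libraries; the largest difference upward is Egr2 in NPCs (3.52) and the largest downward is Nr4a1 in NPCs (−2.00).

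Among the AP-1 genes, Fos differed in NPCs, where the slow/slow samples at 4.3 to 6.78 CPM all lay below the WT samples at 9.63 to 9.96 (log2 −0.73 ± 0.15, FDR 0.000468). In PSA-NCAM+ cells the 2 genotypes overlapped (log2 0.02 ± 0.14, FDR 0.918). In neurons Fos was lower in slow/slow cells (log2 −0.38 ± 0.15, FDR 0.0358), with no overlap, but the call was lost under upper-quartile scaling (−0.24, FDR 0.183) and without WT replicate 2 (−0.27, FDR 0.16) or slow/slow replicate 3 (−0.31, FDR 0.126). In ESCs, at 2.05, 2.21 and 2.07 CPM in WT and 1.42, 1.53 and 1.64 in slow/slow cells, all slow/slow samples were lower but the difference did not pass (log2 −0.46 ± 0.2, FDR 0.0678), and it did when only ESC samples were in the model (−0.44, FDR 0.0141).

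Fosb was lower in slow/slow PSA-NCAM+ cells in the model of all samples (log2 −0.77 ± 0.28, FDR 0.0247), although the ranges overlapped, at 252 to 664 CPM in WT against 233 to 367 CPM in slow/slow cells. Without WT replicate 1 the difference was −0.46 (FDR 0.174), and it also failed the threshold without WT replicate 2 (FDR 0.0769), without slow/slow replicate 2 (FDR 0.103) or 3 (FDR 0.104), and with only the PSA-NCAM+ samples in the model (−0.78, FDR 0.168). With those samples and the replicate number, which paired them, as a block it passed (−0.71, FDR 0.0453). At the other stages Fosb was between 0.136 and 1.67 CPM in every library and did not pass, with log2 differences of −0.59 ± 0.59 in ESCs, 0.16 ± 0.47 in NPCs and 0.26 ± 0.38 in neurons (FDR 0.454, 0.794 and 0.584).

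Jun was higher in slow/slow neurons (log2 0.48 ± 0.2, FDR 0.0444), with every slow/slow sample above every WT sample, but 5 of the 6 fits that left out 1 neuron library lost the call (FDR 0.0682 to 0.139). It did not pass in ESCs (0.34 ± 0.22, FDR 0.229), where only the model of ESC samples called it (0.36, FDR 0.0144), or in NPCs (0.04 ± 0.2, FDR 0.868). In PSA-NCAM+ cells the difference of −0.27 ± 0.2 (FDR 0.244) became −0.61 (FDR 0.00142) without slow/slow replicate 1 and −0.41 (FDR 0.0034) without replicate 1 of both genotypes.

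Junb had the largest difference of the AP-1 genes. In neurons it was at 4.4, 3.96 and 4.21 CPM in WT and 20.9, 24.6 and 22.6 CPM in slow/slow cells, 5.42-fold higher (log2 2.44 ± 0.27, FDR 2.7e-07). In ESCs it was at 8.8, 11.8 and 12.3 CPM in WT and 24.4, 26.2 and 19.4 CPM in slow/slow cells (log2 1.09 ± 0.25, FDR 0.00176). The genotypes were separate at both stages. Markers of other cells differed between the neuron cultures as well, as given with Egr1. In NPCs all slow/slow samples were slightly lower (log2 −0.3 ± 0.25, FDR 0.307; −0.32 and FDR 0.000425 with only NPC samples in the model), and in PSA-NCAM+ cells the ranges overlapped (0.27 ± 0.24, FDR 0.356), with a difference of −0.23 (FDR 0.231) once slow/slow replicate 1, at 308 CPM, was left out and of 0.57 (FDR 0.0403) without slow/slow replicate 2, at 115 CPM.

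Measurements of the neighbourhood of Junb belong beside these values. Genes on chromosome 8 (865 tested) had a median log2 difference between genotypes of 0.45, 0.49, 0.46 and 0.44 from ESCs through to neurons. The overlapping gene Prdx2 was higher in slow/slow cells at all 4 stages, by 0.7, 1.01, 1.57 and 0.7 on the log2 scale (FDR 1.1e-05, 8.92e-08, 2.58e-10 and 7.27e-06), with means of 553 CPM in WT against 898 CPM in slow/slow neurons. In NPCs and PSA-NCAM+ cells Prdx2 passed and Junb did not. How far either contributed to the Junb counts was not tested.

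All 3 EGR genes were called higher in slow/slow PSA-NCAM+ cells, Egr1 with overlapping ranges, and Egr2 was also called in NPCs and Egr1 in neurons. Egr2, a factor of hindbrain patterning and myelination, was at 0.499, 0.407 and 0.495 CPM in WT NPCs and 4.67, 4.15 and 7.32 CPM in slow/slow NPCs, 11.5-fold higher (log2 3.52 ± 0.35, FDR 7.7e-08). The lowest slow/slow sample was far above the highest WT sample. In PSA-NCAM+ cells it was 2.99-fold higher (log2 1.58 ± 0.28, FDR 8.34e-05), again with no overlap. With only PSA-NCAM+ samples and the replicate number as a block, the Egr2 difference was 1.54 (FDR 0.00985). Without 1 library it ranged from 1.49 to 1.8. Markers also differed between genotypes in NPCs, with neural progenitor markers 3 of 4 higher in slow/slow cells (sums of 272 to 289 CPM in WT and 339 to 369), neuron markers 5 of 6 higher (89.5 to 97.1 and 242 to 280), pluripotency markers 5 of 6 lower (2080 to 2140 and 1180 to 1310) and mesenchymal markers 4 of 6 lower (441 to 501 and 208 to 300). Their part in the Egr2 level was not tested. In neurons the ranges overlapped, at 3.5, 4.35 and 3.35 CPM in WT and 3.86, 2.35 and 1.95 CPM in slow/slow cells (log2 −0.44 ± 0.29, FDR 0.214), and leaving out slow/slow replicate 1 brought it to −0.79 (FDR 0.0463).

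Egr3 was 3.56-fold higher in slow/slow PSA-NCAM+ cells (log2 1.83 ± 0.32, FDR 8.11e-05), where the lowest slow/slow sample, at 28.4 CPM, was above the highest WT sample, at 15.3 CPM. At 0.493 CPM or less in every library of the other stages, it did not pass, with differences of 0.93 ± 0.58 in NPCs (FDR 0.177) and 0.33 ± 0.43 in neurons (FDR 0.548). Egr1 was 4.63-fold higher in slow/slow neurons, at 55.2, 53.9 and 55.2 CPM against 11.6, 10.4 and 13.4 CPM in WT (log2 2.21 ± 0.23, FDR 1.71e-07). Markers of other cell types moved beside the Egr1 and Junb differences in neurons. Endothelial markers summed to 10.9 to 13.8 CPM in WT and 98.1 to 124 CPM in slow/slow neurons, with 4 of 4 higher (median log2 difference 2.69), and mesenchymal markers to 339 to 458 and 583 to 619 CPM, with 4 of 6 higher and 2 lower (median 1.41). Endoderm markers had 4 of 5 higher and 1 lower with overlapping sums (48.7 to 56.5 and 41.3 to 58.3 CPM). Csf1r, the 1 macrophage marker of 4 that passed the filter, was higher (log2 2.74), while Ptprc was at 0.0385 to 0.107 CPM in WT and 0 to 0.0274 CPM in slow/slow neurons. Neuron markers had 4 of 6 lower and 0 higher (sums of 3430 to 3740 and 2740 to 2910 CPM), and astrocyte markers 3 of the 4 tested lower and 1 higher (166 to 205 and 84.4 to 96.2 CPM). The part of cell makeup in the Egr1 and Junb levels was not tested. In ESCs and NPCs the Egr1 ranges overlapped (−0.02 ± 0.33, FDR 0.978, and −0.09 ± 0.22, FDR 0.753). In PSA-NCAM+ cells Egr1 was called higher (0.55 ± 0.22, FDR 0.0381) although the ranges overlapped, and the call was lost without slow/slow replicate 3, at 727 CPM (0.24, FDR 0.329), without WT replicate 1 (0.44, FDR 0.132) or 2 (0.53, FDR 0.0804), with only PSA-NCAM+ samples in the model (0.52, FDR 0.232) and under upper-quartile scaling (0.48, FDR 0.0696). It held in the model of PSA-NCAM+ samples with the replicate number as a block (0.48, FDR 0.0307).

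Npas4 was 7.15-fold higher in slow/slow PSA-NCAM+ cells, at 28, 22.9 and 9.63 CPM against 4.26, 3.21 and 0.945 CPM in WT (log2 2.84 ± 0.47, FDR 5.12e-05). The genotypes did not overlap, and replicate 3 was the lowest of both. With only PSA-NCAM+ samples and the replicate number as a block, the Npas4 difference was 2.93 (FDR 0.00198). Without 1 library it ranged from 2.46 to 3.29. In neurons, the cells in which Npas4 is best known, all slow/slow samples were below all WT samples, but the difference of −0.92 ± 0.47 did not pass in the model of all samples (FDR 0.108) and did with only neuron samples (−0.82, FDR 0.00469). In NPCs the ranges overlapped (0.25 ± 0.59, FDR 0.733). Of the 6 neuron markers measured, all were higher in slow/slow PSA-NCAM+ cells, and in slow/slow neurons 4 were lower and 0 higher. In slow/slow NPCs, where Npas4 was not called, 5 of these markers were higher and 0 lower. The part of cell makeup in the Npas4 levels was not tested.

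Nr4a1 was 4-fold lower in slow/slow NPCs, at 16.5, 15.9 and 17 CPM against 63.4, 69.9 and 64.4 CPM in WT (log2 −2.00 ± 0.2, FDR 1.32e-07). The marker differences between the NPC cultures given with Egr2 stand beside this value too, and their part in it was not tested. It was also lower in slow/slow ESCs, at 47.5, 48.3 and 41.8 against 72, 76.4 and 85.8 CPM (log2 −0.77 ± 0.2, FDR 0.0038). At the later stages the genotypes overlapped, with −0.28 ± 0.19 in PSA-NCAM+ cells (FDR 0.226) and 0.09 ± 0.2 in neurons (FDR 0.74), where WT samples were at 14, 18.8 and 15.6 CPM and slow/slow samples at 16.7, 16.7 and 18 CPM. Replicate numbers paired the PSA-NCAM+ samples, and with the number as a block the Nr4a1 difference there passed (−0.30, FDR 0.0388), as it did without slow/slow replicate 1 (−0.55, FDR 0.00763) and without replicate 1 of both genotypes (−0.28, FDR 0.04). Without WT replicate 1, at 272 CPM, the difference was 0.01 (FDR 0.96).

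Arc was the gene called in the same direction at all 4 stages. Slow/slow ESCs had 30.5, 29.8 and 26.3 CPM against 75.7, 77.7 and 87.6 in WT, 2.78-fold lower (FDR 0.00157), slow/slow NPCs were 2.88-fold lower (log2 −1.53 ± 0.34, FDR 0.000859), and slow/slow neurons 2.14-fold lower (log2 −1.10 ± 0.36, FDR 0.0161). Genotypes were separate at these 3 stages. In PSA-NCAM+ cells the difference was 2.25-fold (log2 −1.17 ± 0.33, FDR 0.00564) with overlapping ranges, and it was −0.53 (FDR 0.12) without WT replicate 1, at 128 CPM, and not called with only PSA-NCAM+ samples in the model (−1.17, FDR 0.172), although called with the replicate number as a block (−1.17, FDR 0.00258).

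Arc and Nr4a1 both lie on chromosome 15, whose 639 tested genes had a median log2 difference between genotypes of −0.60, −0.57 and −0.56 at the first 3 stages and of −0.08 in neurons. In ESCs, 64.5% of the genes of this chromosome were lower in slow/slow cells and 2.35% were higher. The Arc differences lay below the chromosome median at every stage, at −1.48, −1.53, −1.17 and −1.10 from ESCs through to neurons. Nr4a1 was close to the median in ESCs (−0.77) and below it in NPCs (−2.00). In PSA-NCAM+ cells (−0.28) and neurons (0.09), where it was not called, Nr4a1 lay above the median. Leaving aside chromosomes 8 and 15, the chromosomes that carry these genes had medians between −0.14 and 0.15 at every stage. What part of the Arc and Nr4a1 values goes with the chromosome was not tested.

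**Figure D4:**
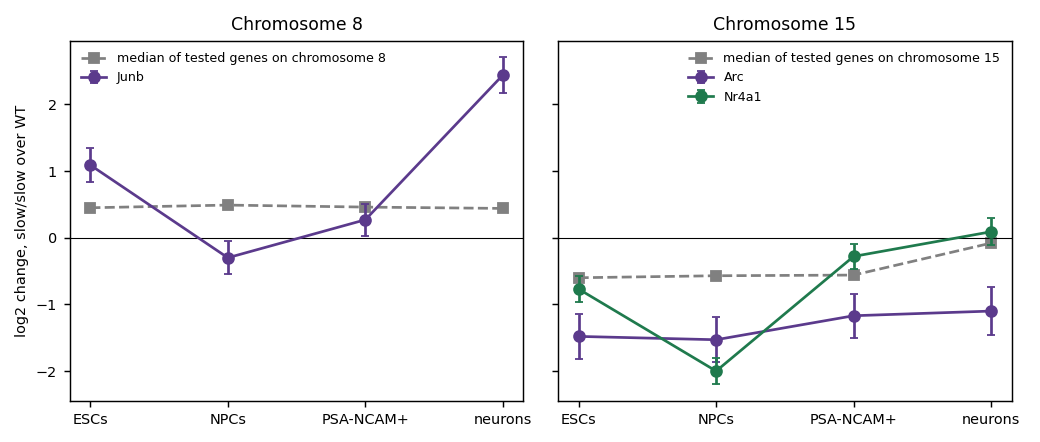
Log2 difference of slow/slow over WT cells by stage for Junb beside the median of the 865 tested genes of chromosome 8, and for Arc and Nr4a1 beside the median of the 639 tested genes of chromosome 15. The chromosome 8 median stays between 0.44 and 0.49, and the chromosome 15 median is near −0.6 until PSA-NCAM+ cells and −0.08 in neurons.

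Whether the genotype difference itself changed from stage to stage was tested as an interaction. Between ESCs and NPCs it did for 3 of the 10 genes (24.6% of all genes), between NPCs and PSA-NCAM+ cells for 4 (14.6%), and between NPCs and neurons for 4 (55.1%). Nr4a1 and Egr2 were called in all 3. Nr4a1 had a genotype difference in NPCs larger than in ESCs and larger than at either later stage, with interaction terms of −1.23, 1.72 and 2.09. The median of its chromosome 15 also moved, from −0.57 in NPCs to −0.08 in neurons, and its part in the last term was not tested. Egr2 had its widest genotype difference in NPCs, with terms of 4.61, −1.94 and −3.96, the first of which rests on the 1 to 14 counts per ESC library. Arc, lower at all stages, was called in none of the interactions in this model.

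The other genes of the same response were described by lists. Of 31 other immediate early genes, 25 rose and 0 fell from NPCs to PSA-NCAM+ cells in WT (median log2 difference 1.87, all genes 0.02), and 27 rose and 0 fell in slow/slow cells (median 1.8, all genes 0). Of all tested genes, 21.8% rose in WT and 22.5% in slow/slow cells, and 41.3% and 42.3% were called in either direction. Between genotypes 4 were higher and 6 lower in ESCs, NPCs had 6 and 7, PSA-NCAM+ cells 5 and 3, and neurons 7 and 9. All genes gave 18.5% higher and 21.9% lower for ESCs, 29.3% and 27.4% for NPCs, 28.6% and 28.1% at the PSA-NCAM+ stage, then 23.4% and 28.4%. In PSA-NCAM+ cells the count rested on slow/slow replicate 1, without which 4 were higher and 18 lower, with 68.9% of all genes called. The 16 called in neurons became 10 or 11 whichever neuron library was left out (45.2 to 46.5% of all genes called, against 51.9% with all). Egr4, a further EGR factor, was the largest rise in PSA-NCAM+ cells (log2 3.31, FDR 1.87e-07). Sik1, a kinase gene induced by cAMP, was the largest fall in NPCs (−2.38, FDR 3.12e-09) and in PSA-NCAM+ cells (−1.44, FDR 1.11e-06). Maff, a small Maf factor, led the falls in ESCs (−2.20, FDR 0.000283). Jund, an AP-1 subunit on chromosome 8, led the rises there (1.35, FDR 8.6e-06). The part of the chromosome-wide differences, given with Junb and Arc, in these values was not tested. That holds for the later lists too. Rgs2, a regulator of G protein signalling, led the rises in NPCs (2.95, FDR 4.12e-06) and Klf10, a zinc finger repressor, in neurons (2.09, FDR 2.67e-05). Nr4a3, a relative of Nr4a1, led the falls in neurons (−1.48, FDR 0.0344), a call lost in 5 of the 6 fits without 1 neuron library (FDR 0.0624 to 0.0873) and under upper-quartile scaling (−1.33, FDR 0.0523).

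Delayed genes of the neuronal activity response, 15 in all, split between genotypes with 3 higher and 3 lower in slow/slow ESCs, 7 and 3 in NPCs, 6 and 4 at PSA-NCAM+, and 4 and 7 as neurons, against those same shares of all genes. Vgf, a secreted neuropeptide precursor, had the widest difference, at 109 ± 11.1 CPM in WT neurons and 3.94 ± 0.195 CPM in slow/slow neurons (SD, n = 3; log2 −4.79, FDR 1.2e-07). Timp1, an inhibitor of matrix proteases, led the rises in neurons (1.98, FDR 4.57e-05), and Mmp9, a matrix protease, led the falls in NPCs (−2.27, FDR 2.21e-06) and PSA-NCAM+ cells (−2.52, FDR 5.74e-07). In ESCs the leading genes were Pcsk1, a prohormone convertase (0.81, FDR 0.00279), and Plat, tissue plasminogen activator (−1.32, FDR 0.00177). Gadd45g led in NPCs (1.18, FDR 0.0253) and lost the call in 4 of the 6 fits without 1 NPC library. Inhba, an activin subunit, led in PSA-NCAM+ cells (2.04, FDR 0.0223), where it rested on slow/slow replicate 1 (0.35, FDR 0.559 without it).

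Among 26 upstream regulators, to be read against those shares too, slow/slow ESCs had 7 higher and 9 lower, NPCs 9 and 7, PSA-NCAM+ cells 6 and 8, and neurons 1 and 11, where the list's median was −0.29 and that of all genes −0.06. Creb1, the CRE-binding factor, was the largest rise in ESCs (0.75, FDR 0.00262), NPCs (1.09, FDR 4.7e-05) and PSA-NCAM+ cells (1.32, FDR 5e-06). Camk4, a calcium-activated kinase of CREB, was the largest fall in neurons (−1.56, FDR 7.53e-07), and Elk4, an SRF cofactor, the rise (0.73, FDR 0.00141). The largest fall in ESCs was Crtc3, a CREB coactivator (−0.76, FDR 0.000209). In NPCs it was Ep300, a histone acetyltransferase (−0.67, FDR 3.81e-05), and in PSA-NCAM+ cells Rps6ka1, an ERK-activated kinase (−0.82, FDR 3.48e-08). The chromosome-wide differences given with Junb and Arc were not set against Ep300 or the other regulators. Their part in these values was not tested.

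Genes induced by ERK that feed back on it, 10 in all, were counted as well. Slow/slow ESCs had 1 higher and 2 lower, NPCs 5 and 1, PSA-NCAM+ cells 5 and 0, and neurons 2 and 6, to be read against the same shares of all genes. Spry4, an inhibitor of receptor tyrosine kinase signalling, was the largest rise in ESCs (2.23, FDR 1.29e-08) and the largest fall in neurons (−1.70, FDR 3.19e-08). Its relative Spry2 led the rises in NPCs (1.07, FDR 3.26e-06) and neurons (0.53, FDR 0.00374), and Spry1 was the fall in NPCs (−0.38, FDR 0.00228). Dusp4, an ERK phosphatase, led in PSA-NCAM+ cells (1.46, FDR 5.32e-07), where 7 genes were higher and 1 lower without slow/slow replicate 1. The part of the chromosome-wide differences in the Dusp4 value, or in those of the other feedback genes, was not tested. Etv4, an ERK-induced factor, was the largest fall in ESCs (−1.20, FDR 0.0143), a call lost without slow/slow ESC replicate 1 (FDR 0.0563) or 3 (FDR 0.0611).

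Intron retention was examined because the study asked how the speed of the polymerase bears on splicing. Retention is given as the percent of junction reads that support the intron (PSI). Of the 24 annotated introns of these genes, 8 had enough balanced reads in all 6 ESC samples, 6 in NPCs, 12 at the PSA-NCAM+ stage and 8 in neurons. A difference over 10 points with a posterior probability over 0.95 was met by 1 of them, the single intron of Egr1 in NPCs, where 0.321% of all introns tested in NPCs met it. At the other stages 0 of the genes' introns met it, and 0.0541% (ESCs), 0.0826% (PSA-NCAM+ cells) and 0.26% (neurons) of all introns did. Its retention was 4.0, 4.49 and 1.33% in WT and 12.5, 18.6 and 24.4% in slow/slow NPCs, a difference of 15.25 points (posterior 0.985), from 52, 93 and 76 reads and 117, 35 and 56 reads. The groups were separate, but limma on the same reads gave an FDR of 0.0687, above the threshold. In PSA-NCAM+ cells, where Egr1 was 12.9-fold (WT) and 20-fold (slow/slow) more abundant than in NPCs, the same intron was at 3.71, 1.3 and 2.01% in WT and 3.62, 1.33 and 0.87% in slow/slow cells, 2 of whose samples failed the balance filter, so it was not tested there.

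In neurons the Egr1 intron was at 0% in all 3 WT samples (22, 26 and 65 reads) and at 12.2, 10.9 and 7.98% in slow/slow samples (193, 235 and 88 reads), but again not every sample passed the balance filter. Fos showed smaller differences. Both tested introns of Fos were more retained in slow/slow neurons, by 5.15 and 8.24 points, under the 10-point limit, although limma put both under an FDR of 0.05 (0.00139 and 1.67e-05). Summed over its introns, retention of Fos was 1.9, 0.798 and 3.47% in WT and 7.37, 5.95 and 6.07% in slow/slow neurons, and 2.02, 2.05 and 0.797% against 8.02, 5.26 and 8.59% in NPCs. In PSA-NCAM+ cells, where Fos was most abundant, it was 1.06, 0.337 and 1.56% in WT and 0.737, 0.208 and 0.411% in slow/slow cells. The introns of Nr4a1 differed by at most 2.46 points in any comparison tested. Arc went the other way in NPCs, where its introns were not tested. Summed over them, retention was 7.11, 1.03 and 0.287% in WT and 0% in every slow/slow sample.

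**Figure D5:**
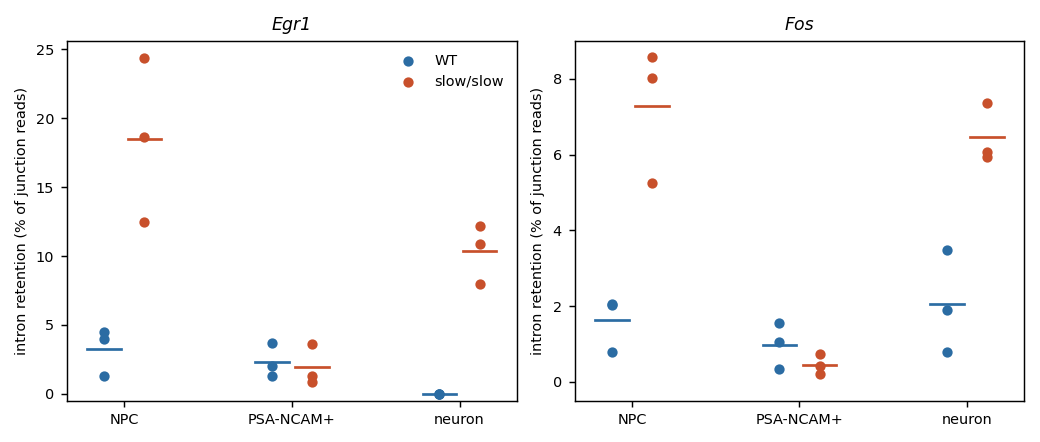
Percent of junction reads supporting retention of the introns of Egr1 and Fos in each sample, for WT and slow/slow NPCs, PSA-NCAM+ cells and neurons. In NPCs and neurons every slow/slow sample lies above every WT sample for both genes, and in PSA-NCAM+ cells all values are below 4%.

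Arc also had an alternative 3′ splice site with enough reads at 3 stages. Its use was 40.4, 33.39 and 33.0% in WT and 21.73, 27.98 and 30.16% in slow/slow NPCs. The difference of −8.97 points was under the 10-point limit, with no overlap. It did not pass with limma either (FDR 0.688, and 0.798 with the replicate block). The difference was 2.58 points in ESCs and −1.39 points in PSA-NCAM+ cells.

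Gene length was compared because the study concerns the speed of transcription. Except for Nr4a1, 6.93 to 19.6% of the tested genes with a known span were shorter than each of these genes. Among the 7576 tested genes no longer than Nr4a1, 25.4% were higher and 23.7% lower in slow/slow neurons, with a median log2 difference of 0.0. Among the 2310 genes over 100 kb, 17.9% were higher and 43.5% lower, with a median of −0.27. The long genes went the other way in PSA-NCAM+ cells, with 38.1% higher and 21.4% lower (median 0.17), and had 32.2% and 27.3% in NPCs (median 0.04) and 14.4% and 28.8% in ESCs (median −0.13).

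Across the 24 samples, the gene outside the set most like each member in log2 CPM was Nrip1 for Fos (Pearson's r = 0.932) and Egr2 (0.955), Dusp1 for Fosb (0.929) and Egr3 (0.929), Col8a1 for Jun (0.981), Nox4 for Junb (0.937), Ccdc80 for Egr1 (0.96), Osr2 for Nr4a1 (0.959), Pip4k2c for Arc (0.977) and 1810011O10Rik for Npas4 (0.96). The samples share stages, lines and cultures and are not independent, so no p is attached to these values.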

How the data were processed

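Poly(A)-selected RNA of 24 samples, 3 in each of 8 groups of genotype and stage, had been made into stranded libraries and sequenced from both ends. The authors mapped the reads to mm9 and deposited unnormalised whole-number counts for each gene, made with vast-tools and with strand use not stated, and RPKM values as their own means per group. They also deposited, per sample, PSI in percent with read numbers for inclusion and exclusion. Their own log2 fold changes and FDR values of slow/slow against WT cells, and a table of PSI estimates per group, were not used. Short-read counts of poly(A) RNA measure steady-state messages and not transcription.

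Counts were tested with edgeR 4.0.16 (R 4.3.3): filterByExpr, TMM, the quasi-likelihood test in 1 model of 8 groups with 16 residual degrees of freedom, and a Benjamini-Hochberg FDR under 0.05. The common biological coefficient of variation was 0.164. SEs were derived from the F statistic. Totals of 32974432 to 104466886 counts set the precision of low genes, and counting error is only part of the spread. Introns entered if every one of the 6 samples had 15 reads and a balance p-value not under 0.05, and were called at a PSI difference over 10 points with a posterior probability over 0.95. Of the tested genes 98.1% were matched to GENCODE (GRCm38).

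The members and lists were chosen with earlier results of these data known. All 10 members were named at every stage, and of each list the called genes with the largest rise and fall per genotype comparison. Replicate numbers in the labels were checked for pairing by the correlation of deviations from the group means: it was 0.54, 0.45 and 0.40 in PSA-NCAM+ cells, so the numbers pair the samples there, and −0.08 to 0.07 at the other stages. Alternatives were DESeq2 1.42.0, its size factors, upper-quartile scaling, no filter, stage samples alone, a replicate block, leaving out each library and, for introns, limma 3.58.1. Tested on simulated data for the neuron comparison (16274 genes, 200 changed), edgeR recovered 65% of 2-fold and 88% of 4-fold changes.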

Additional observations from a re-analysis of the deposited data

Results flagged for a closer look

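Of the 30 tests of whether a genotype difference changed between stages, 11 passed an FDR of 0.05 in edgeR's quasi-likelihood test, each a difference between groups under the same contrast. Values are the log2 slow/slow over WT difference at the later stage minus that at the stage named second. Between NPCs and ESCs, Junb had −1.40 (SE 0.35, FDR 0.0068), Egr2 4.61 (SE 0.79, FDR 0.000256, against 1 to 14 counts per ESC library) and Nr4a1 −1.23 (SE 0.28, FDR 0.00303). Between PSA-NCAM+ cells and NPCs, Fos had 0.75 (SE 0.21, FDR 0.0197), Egr2 −1.94 (SE 0.44, FDR 0.00574), Npas4 2.59 (SE 0.74, FDR 0.0257) and Nr4a1 1.72 (SE 0.28, FDR 0.000454). With only the samples of these stages in the model, the Fos and Npas4 values were 0.77 (FDR 0.107) and 2.62 (FDR 0.11). The Npas4 call was also lost without WT NPC replicate 3 (2.02, FDR 0.133) or slow/slow NPC replicate 2 (2.44, FDR 0.0593). Between neurons and NPCs, Junb had 2.74 (SE 0.36, FDR 2.94e-06), Egr1 2.30 (SE 0.32, FDR 5.71e-06), Egr2 −3.96 (SE 0.45, FDR 5.3e-07) and Nr4a1 2.09 (SE 0.28, FDR 4.38e-06). The median genotype difference of chromosome 15, which carries Nr4a1, was −0.57 in NPCs and −0.08 in neurons.

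Groups of 3 are too small for a test of single outlying samples, and none was made.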

How the results depend on the processing

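Over the member genes, 623 of the values under another scaling, filter, tool or set of samples and 626 of those without 1 library kept their direction and side of the threshold. Of the rest, 5 and 12 turned direction, 11 and 30 lost a call, and 7 and 4 gained a call. The values that kept their side include those not called in any fit. With only the samples of the stages compared, the members called numbered 5 for ESCs and 3 for PSA-NCAM+ cells, with 2 and 8 in the interactions of PSA-NCAM+ cells and neurons with NPCs, where 62.4%, 23.3%, 4.2% and 72.5% of all genes were called. The other immediate early genes then numbered 21 (ESCs), 23 (NPCs), 4 (PSA-NCAM+ cells) and 25 (neurons), the delayed genes 3 and the upstream regulators 9 in PSA-NCAM+ cells and 22 in neurons, and the ERK feedback genes 6, 10 and 2 in ESCs, NPCs and PSA-NCAM+ cells, beside 75.8% of all genes in NPCs and 76.3% in neurons. That setting leaves 4 or 8 residual degrees of freedom. Without 1 library, members called ranged from 3 to 8 in PSA-NCAM+ cells (3 without WT replicate 1) and from 3 to 6 in neurons (3 without WT replicate 2 or slow/slow replicate 3), other immediate early genes from 9 to 22 and from 10 to 11, and ERK feedback genes in PSA-NCAM+ cells from 5 to 8. Without PSA-NCAM+ number 1 of both genotypes, chosen after seeing the data, 7 members were called in the interaction with NPCs (31.1% of all genes), and 20 other immediate early genes and 9 ERK feedback genes between genotypes (68% of all genes). The call of the Egr1 intron was lost with limma (0 called) and kept at 1 with its replicate block.

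Directions also turned, each time with no call in the full model or the fit that turned. Without 1 library the ESC differences ranged from −0.29 to 0.23 for Egr1 and −1.16 to 0.98 for Egr3, the NPC differences from −0.12 to 0.72 for Fosb, −0.04 to 0.12 for Jun and −0.16 to 0.06 for Egr1, the PSA-NCAM+ differences from −0.11 to 0.20 for Fos and −0.23 to 0.57 for Junb (the upper value called, FDR 0.0403), and the neuron differences from −0.02 to 0.21 for Nr4a1. For Nr4a1 in PSA-NCAM+ cells they ranged from −0.55, called without slow/slow replicate 1, to 0.01. Fos in PSA-NCAM+ cells was −0.0012 with DESeq2 or its size factors, −0.04 with upper-quartile scaling and −0.02 with the PSA-NCAM+ replicate block, while Junb was −0.00045 without number 1 of both genotypes.

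In PSA-NCAM+ cells, where the numbers pair the samples, the block called 7 members and 13 other immediate early genes (41.3% of all genes). Over all 24 samples the replicate block called 3, 4, 6 and 5 members at the stages in turn, and the call of Fosb between slow/slow neurons and NPCs was lost (0.97, FDR 0.0501). Depth limits Npas4, Egr3 and Egr2 in ESCs, where counts per library were 14 or fewer.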
